A study of Mus musculus with 12 samples.

Results

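The 5 alpha-arrestin genes Arrdc1, Arrdc2, Arrdc3, Arrdc4 and Txnip were examined in mouse airway organoids with and without laser ablation of cells. They were taken by gene name from 55401 listed genes, and the family was chosen by the normalized counts of Arrdc3, which were higher after ablation in all 6 pairs of dishes, so the difference between ablation and control is given for these genes as a description, without a test. All 5 were among the 13792 genes that reached 10 normalized counts in at least 6 of the 12 libraries, which is the set used for every model across genes.

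Organoids had been grown from airway epithelial cells of adult C57BL/6J mice in basement membrane extract. In every group, controls included, the cells carried a lentiviral reporter that places the fluorescent histone fusion H2A-mCherry under a p63 promoter. Each library came from 1 dish of 45 organoids. In the ablation group (6 dishes) 10 neighbouring cells of each organoid were destroyed with a femtosecond laser, and in the control group (6 dishes) no cell was ablated. Both groups were switched to FluoroBrite DMEM without supplements 1 h before the treatment and were harvested 4.5 h after it. The dishes formed pairs numbered 1, 3, 4, 5, 6 and 7, and the 2 dishes of a pair shared the passage, the culture day (14 to 20) and the date given in their titles. The library numbers fell into 2 runs, called library set 1 (pairs 1, 3 and 5) and library set 2 (pairs 4, 6 and 7) here. The titles of control dishes 4, 6 and 7 contain the word ablation while their treatment field says control, and the treatment field was followed, so the ablation difference of each member is also given for each library set below. No source used here ties the cultures to separate mice, so the spread between dishes may be that of 1 line of cultures.

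The libraries were poly(A)-selected and stranded. Reads assigned to genes could be recovered for 9 libraries and ranged from 27954695 to 29489553 in 4 ablation libraries and from 23631212 (pair 7) to 29775699 in 5 control libraries. The depth of the other 3 was not settled. The values below are normalized counts, whose totals ranged from 27297950 to 28504390 over the 12 libraries. The basal cell genes Krt5 and Krt14 were among the highest, at 229016 to 340094 and 210725 to 274982 normalized counts, and Krt8, a marker of luminal cells, lay at 21477 to 31146. Of the markers of secretory cells, Cyp2f2 was high (26191 to 78597), whereas Scgb1a1 stayed at or below 9.65 and Scgb3a2 at or below 21.4 normalized counts. The ciliated cell factor Foxj1 reached 18.1 at most, while Tubb4b, a tubulin gene that other cells express as well, lay at 10168 to 15295. Of the alveolar type II cell genes, Sftpc was at 0 in all 12 libraries and Sftpa1 reached 12.5. Markers of fibroblasts (Col1a1, Col1a2, Pdgfra), leukocytes (Ptprc) and endothelial cells (Pecam1) did not pass 24.5 normalized counts in any library. The labelled epithelial identity was thus met by the basal markers, by luminal Krt8 and, among the secretory markers, by Cyp2f2 alone. Foxj1, Sftpc and Scgb1a1, markers of ciliated, alveolar and club cells, were absent or near 0.

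Alpha-arrestins are adaptor proteins with an arrestin fold. Most of them carry PPxY motifs (proline, proline, any residue, tyrosine) near the carboxy terminus, through which they bind the WW domains of NEDD4-type ubiquitin ligases and bring those ligases to membrane cargo such as receptors and transporters. Txnip, the thioredoxin-interacting protein, also binds thioredoxin and lowers glucose uptake by removing the glucose transporter GLUT1 from the cell surface. Txnip and Arrdc4 are known targets of the glucose-sensing factor MondoA (Mlxip) and its partner Mlx, which bind carbohydrate response elements built from E-boxes. Arrdc3 has been linked to the removal of beta-adrenergic receptors and of integrin beta 4 from the membrane, and Arrdc1 to the budding of small vesicles from the plasma membrane together with the ESCRT protein TSG101. The roles of Arrdc2 are less settled.

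The bases that encode the PPxY motifs are printed first, since this is the feature that joins the family to its ligase partners. They were read from the GENCODE transcripts of the GRCm38 annotation, 5′ to 3′, with the codons of the motif in capitals and 9 coding bases to either side.
Arrdc3 site 1: cctgaagcaCCACCCAGCTATgcagaggtt
Arrdc3 site 2: ttcctgcccCCACCTCTCTATtcagagatt
Txnip site 1: ccagaagctCCTCCTTGCTATatggacatc
Txnip site 2: ttcatgcccCCACCCACTTACactgaggtg
Arrdc4 site 1: cctgaagcaCCACCAAATTATgcagatgtg
Arrdc4 site 2: ttccagcctCCCCCCCTTTATtcagaggtt
Arrdc1 site 1: ttgatcctcCCTCCAGAGTACagttcatgg
Arrdc1 site 2: tatgaggccCCGCCGTCCTATgagcagagc
Arrdc2 site 1: ccagaggccCCACCTGAGTACtccgaggtg
Arrdc2 site 2: tactgcccgCCTCCTCTGTACtccgaggag
Each of the 5 coding sequences (1194 to 1305 bases) held 2 such sites, all in the last part of the reading frame. In Txnip the first began at base 994 and the second at base 1126 of 1194, and in Arrdc3 they began at bases 1036 and 1171 of 1245. The related gene Arrdc5, with a coding sequence of 978 bases, held 0 such sites. Aligned in pairs, the coding sequences of the 5 members were identical at 57.2% to 63.9% of aligned bases, and no pair shared a run of 31 bases. Reads of 75 bases could therefore be told apart between members in the coding part.

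The genes lie on 5 chromosomes of GRCm38: Arrdc3 (ENSMUSG00000074794.10) at chr13:80883384-80896042 on the plus strand, Txnip (ENSMUSG00000038393.14) at chr3:96557957-96561883 on the plus strand, Arrdc4 (ENSMUSG00000042659.15) at chr7:68736995-68749241 on the minus strand, Arrdc1 (ENSMUSG00000026972.15) at chr2:24925352-24935252 on the minus strand and Arrdc2 (ENSMUSG00000002910.11) at chr8:70835129-70839720 on the minus strand. All are protein coding, with 4 to 8 merged exons. The antisense gene Gm15441 shares 606 exon bases with Txnip and had a mean of 13.3 normalized counts. The only other overlap was that of 1700023H06Rik with Arrdc3, which shares 0 exon bases and had a mean of 0.973.

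Promoters are shown for Txnip and Arrdc4, the pair with known shared regulation, and for Arrdc3, the member by which the family was chosen. The 250 bases before the RefSeq start site of each gene follow, written 5′ to 3′ on the strand of the gene, with matches to the motifs searched in capitals.
Txnip, chr3:96557707-96557956, plus strand: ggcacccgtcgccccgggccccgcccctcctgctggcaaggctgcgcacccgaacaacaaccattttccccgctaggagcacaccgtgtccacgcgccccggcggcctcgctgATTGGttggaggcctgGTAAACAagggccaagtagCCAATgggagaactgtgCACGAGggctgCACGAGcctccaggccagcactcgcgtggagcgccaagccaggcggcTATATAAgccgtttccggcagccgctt
Arrdc4, chr7:68749239-68749488, minus strand: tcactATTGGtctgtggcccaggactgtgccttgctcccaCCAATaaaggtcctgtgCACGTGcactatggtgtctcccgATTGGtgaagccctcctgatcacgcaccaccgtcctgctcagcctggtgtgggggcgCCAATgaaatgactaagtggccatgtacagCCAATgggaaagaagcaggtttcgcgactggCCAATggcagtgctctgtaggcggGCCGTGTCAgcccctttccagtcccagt
Arrdc3, chr13:80883134-80883383, plus strand: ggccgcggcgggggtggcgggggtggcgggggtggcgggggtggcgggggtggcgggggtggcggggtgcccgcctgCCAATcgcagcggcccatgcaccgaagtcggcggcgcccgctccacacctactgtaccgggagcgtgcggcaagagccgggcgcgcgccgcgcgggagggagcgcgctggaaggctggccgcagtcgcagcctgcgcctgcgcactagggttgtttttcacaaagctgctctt
All motifs were searched on both strands, in 32851 RefSeq promoter windows of this length, and positions count back from the start site. The Txnip window held CACGAG 2 times in the same direction, beginning at -85 and -74, a spacing found in no other of the 32851 windows (1 window, 0.00304%), though it was read from this same window. The letters CACGAG, found in 5.37% of windows, were added to the search after the sequence had been seen. The Arrdc1 window held them 2 times as well, at -158 and -118 on the opposite strand, and the Arrdc2 window 1 time, at -77. The E-box CACGTG, in 6.02% of windows, was found in the Arrdc4 window only, at -193, and the consensus of the carbohydrate response element, a pair of E-boxes allowing several letters, in 0.454% of windows, in none of the 5 members. The Txnip window also held GTAAACA, the forkhead core, at -121 (3.17% of windows), and TATATAA at -27, likewise added after the sequence had been seen (3.04%).

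The CCAAT box, the site of the factor NF-Y, was present in 33.8% of all windows. Arrdc4 held 6 copies, a number reached by 19 windows (0.0578%). Txnip held 2 copies, Arrdc2 3 and Arrdc3 1, and the Arrdc1 window held none. TGACNNNGC, a core of the antioxidant response element found in 10.2% of windows, was seen in Arrdc4 at -28. TATAAA, TGACGTCA and TGANTCA, found in 12.4%, 1.55% and 6.75% of windows, were found in none of the 5. With 76% G and C, the Arrdc3 window was richer than that of Txnip (66.8%) or Arrdc4 (58%), against a median of 52.4% over all windows. These matches describe letters in a window and no binding was measured. The absence of the carbohydrate response element from the members holds only for the exact pattern searched. The repeat beginning at -85 and -74 in the Txnip window has the spacing of that pattern. It departs from the pattern by 1 letter, in the later of its boxes. Whether this repeat acts as such an element was not tested.

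Levels between genes were compared as normalized counts per kilobase of merged exons. In control dishes Txnip was the highest member at 1855 ± 173 (SD, n = 6), followed by Arrdc3 at 600.0 ± 30.5, Arrdc1 at 525 ± 39.6, Arrdc4 at 260 ± 21.9 and Arrdc2 at 15.1 ± 3.30 normalized counts per kilobase. In ablation dishes the corresponding levels were 1754 ± 313, 805 ± 75.4, 551 ± 33.1, 240 ± 41.7 and 15.0 ± 2.47 (SD, n = 6). The order was the same in 11 of 12 libraries, and in 1 library Arrdc1 lay above Arrdc3. Arrdc3 and Arrdc1 were the only neighbours in this order whose ranges overlapped in the control group, and in the ablation group no neighbours overlapped. Over all libraries, the level of Txnip was above that of 94.8% of the genes tested, that of Arrdc3 above 84.3%, Arrdc1 above 78.9%, Arrdc4 above 60.1% and Arrdc2 above 12.8%.

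**Figure D1:**
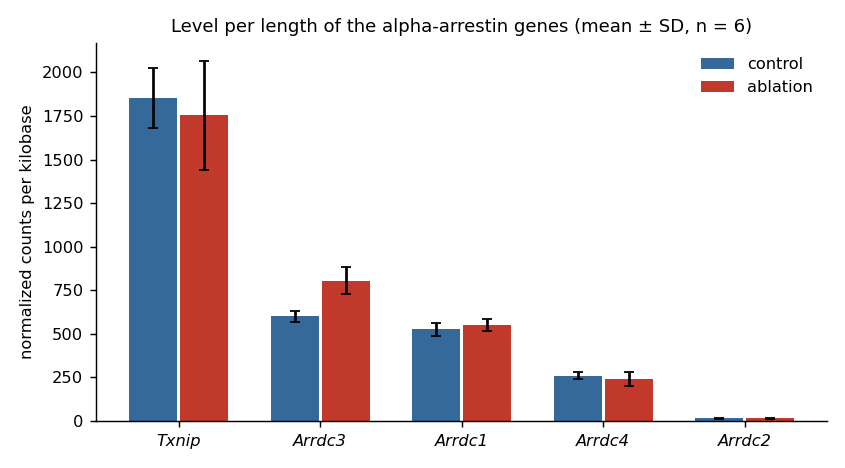
Level of the 5 alpha-arrestin genes in normalized counts per kilobase of merged exons (vertical axis) for control (blue) and ablation (red) dishes. Bars are means and error bars SD over 6 dishes. Txnip is the tallest in both groups, and Arrdc3 is the gene whose bars stand furthest apart for their error, 805 against 600.0.

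Arrdc3, an adaptor for membrane receptors, was 1.34-fold higher after ablation. Its normalized count in the ablation dishes of pairs 1, 3, 4, 5, 6 and 7 was 4988, 4520, 5860, 5021, 5221 and 4667, and in the control dishes of the same pairs 3460, 3717, 3863, 3967, 3910 and 3641. The lowest ablation dish (4520, pair 3) was above the highest control dish (3967, pair 5), so the groups did not overlap. The means were 5046 ± 473 and 3760 ± 191 (SD, n = 6), with medians of 5004 and 3790. Within pairs the log2 difference was 0.53, 0.28, 0.60, 0.34, 0.42 and 0.36, a mean of 0.42 ± 0.12 (SD, n = 6 pairs), which corresponds to folds of 1.22 to 1.52. Of the 13792 genes tested, 5.17% were higher in all 6 pairs and 0.247% had every ablation dish above every control dish. Because the family was chosen for this pattern, nothing further is read from the place of Arrdc3 among these genes. The mean difference was 0.38 in library set 1 and 0.46 in library set 2, the latter being the set with the ambiguous control titles. It lay between 0.38 (without pair 4) and 0.45 (without pair 3) when each pair was left out in turn.

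Trp63, the basal cell factor whose promoter drives the reporter, moved in the same direction, at 9844 ± 1141 after ablation and 7505 ± 917 in controls (SD, n = 6). Trp63 was higher in 6 of 6 pairs, as were 5.17% of all genes tested. Its adjusted p was 0.187 in the limma model with the library set and 0.00825 in the limma model with the pair. The other basal markers gave log2 differences of 0.02 for Krt5 and 0.05 for Krt14, with adjusted p of 0.964 and 0.878 (limma, library set model). With the pair in the limma model the adjusted p was 0.851 for Krt5 and 0.539 for Krt14. Krt8 gave 0.11 on the log2 scale, with all 6 ablation dishes above their controls, as for 5.17% of all genes tested. The limma adjusted p of Krt8 was 0.787 in the library set model and 0.16 with the pair. Cyp2f2 and Tubb4b gave -0.16 and -0.12, with limma adjusted p-values of 0.891 and 0.811 in the library set model. With the pair in the limma model they were 0.474 and 0.147. Tubb4b was lower in 6 of 6 pairs, as were 4.63% of all genes tested, and Cyp2f2 was higher in 2 of 6. The part of cell composition in the Arrdc3 difference was not tested, and in bulk libraries fewer cells of a type and less RNA per cell cannot be told apart.

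**Figure D2:**
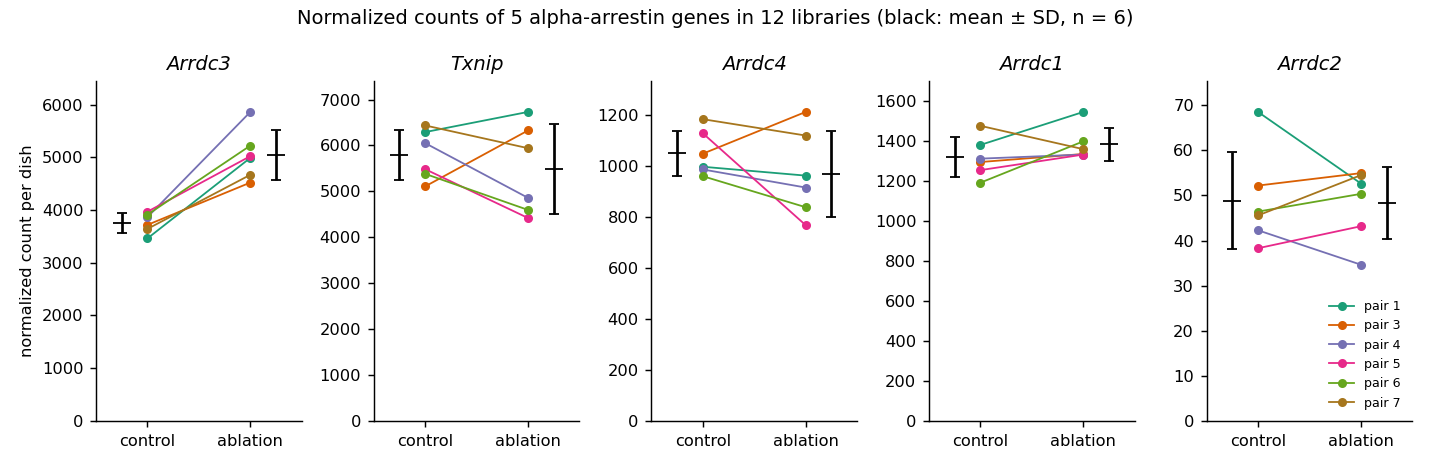
Normalized count per dish (vertical axis, separate scale per gene, starting at 0) for control and ablation dishes of the 5 genes, with lines joining the dishes of a pair and black bars for mean and SD over 6 dishes. All 6 lines of Arrdc3 rise, from 3460 to 3967 up to 4520 to 5860, whereas lines of the other 4 genes run in both directions.

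Txnip, the thioredoxin-binding member, gave no uniform direction. Its normalized count in the ablation dishes of pairs 1, 3, 4, 5, 6 and 7 was 6730, 6326, 4859, 4420, 4596 and 5941, and in the matching control dishes 6290, 5107, 6052, 5484, 5382 and 6437. The ablation dishes of pairs 1 and 3 were above their controls and those of the other 4 pairs were below them. Means were 5479 ± 978 after ablation and 5792 ± 541 in controls (SD, n = 6), and the mean difference within pairs was -0.09 ± 0.25 on the log2 scale, or 0.937-fold. The range of the ablation dishes enclosed that of all control dishes. By library set, the difference was 0.03 in set 1 and -0.22 in set 2. Leaving out 1 pair gave values from -0.17 (without pair 3) to -0.05 (without pair 5 or pair 4).

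Arrdc4, the other MondoA target, lay lower in the ablation dish of 5 of 6 pairs. The ablation dishes gave 962, 1212, 915, 768, 838 and 1119 normalized counts in pair order, and the control dishes 997, 1048, 986, 1129, 960 and 1184. The exception was pair 3, in which the ablation dish was the highest of all 12. The largest decrease was that of pair 5, at -0.56 on the log2 scale, and without this pair the mean difference of -0.13 ± 0.25 (SD, n = 6 pairs) became -0.05. The difference was -0.13 in each library set. The groups overlapped, with means of 969 ± 169 and 1051 ± 88.3 (SD, n = 6).

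Arrdc1, the vesicle-budding member, was measured at 1545, 1335, 1332, 1332, 1398 and 1359 normalized counts after ablation and at 1380, 1295, 1312, 1254, 1191 and 1476 in the matching controls. It was higher in the ablation dish of 5 of 6 pairs, pair 7 being the exception, and the ranges overlapped. The mean difference of 0.07 on the log2 scale was smaller than its SD of 0.12 over the 6 pairs. It was 0.10 in library set 1 and 0.04 in library set 2, and leaving out pair 6 gave 0.04 and leaving out pair 7 gave 0.11.

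Arrdc2, the least abundant member, gave 52.6, 55.0, 34.6, 43.2, 50.4 and 54.5 normalized counts after ablation and 68.5, 52.2, 42.3, 38.3, 46.4 and 45.6 in controls. Higher values were seen in the ablation dishes of 4 pairs and lower values in those of pairs 1 and 4. The mean difference was -0.01 ± 0.26 on the log2 scale (SD, n = 6 pairs), with -0.04 in library set 1 and 0.03 in library set 2, and it turned above 0 without pair 1 (0.07) or pair 4 (0.05). At this level counting alone gives an SD of 0.21 on the log2 scale, so differences of the size seen for Arrdc3 would be hard to see in single pairs of Arrdc2.

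**Figure D3:**
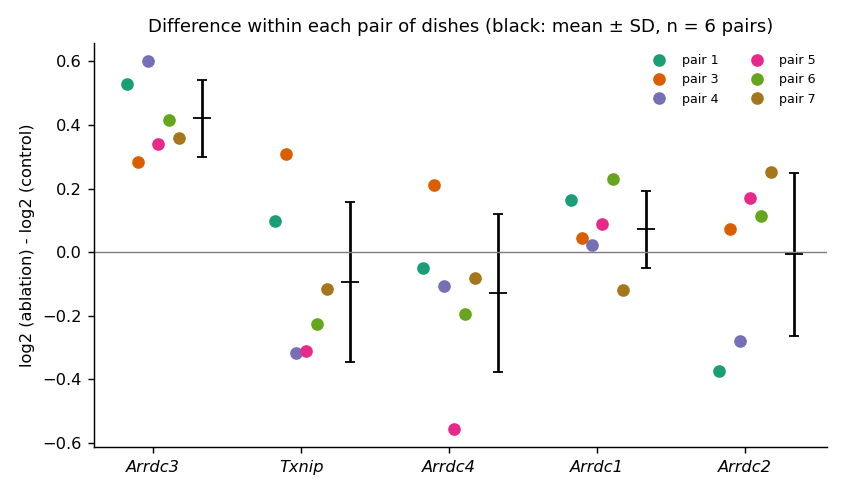
Difference within each pair of dishes, log2 of the ablation dish minus log2 of the control dish (vertical axis), for the 5 genes. Points are pairs and black bars give mean and SD over 6 pairs. The 6 points of Arrdc3 lie between 0.28 and 0.60, and those of every other gene lie on both sides of 0.

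The summed level of the 5 genes per kilobase differed by less than the spread between pairs, at 3366 ± 328 in ablation and 3255 ± 198 in control dishes (SD, n = 6), with a mean log2 difference of 0.04 ± 0.14 and 3 of 6 pairs higher. Arrdc3 made up 24.2% ± 3.83 of this sum after ablation and 18.5% ± 1.77 in controls (SD, n = 6). The corresponding shares of Txnip were 51.8% ± 4.42 and 56.9% ± 2.06. The ratio of Txnip to Arrdc3 per kilobase was 2.71, 2.81, 1.66, 1.77, 1.77 and 2.55 in the ablation dishes of pairs 1, 3, 4, 5, 6 and 7, and 3.65, 2.76, 3.14, 2.77, 2.76 and 3.55 in the controls. The ratio was lower after ablation in every pair except pair 3. Since these shares and ratios contain the Arrdc3 values that chose the family, they describe its makeup and add no separate evidence.

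Culture day and library set were not used to choose the genes and could be tested. For culture day, the means of the 2 dishes of a pair were compared between late cultures (days 18, 19 and 20, pairs 6, 7 and 3) and early ones (days 14, 14 and 15, pairs 1, 4 and 5) with limma and the library set in the model. None of the 5 members passed an adjusted p of 0.05, their adjusted p ranging from 0.837 to 0.988, and none had an unadjusted p under 0.05, the lowest being 0.176 for Arrdc4. Over all genes tested, 1 gene passed (0.00725%), Igfbp5, which was lower in late cultures, and 895 (6.49%) had an unadjusted p under 0.05. Igfbp5 is no member and is named because it was the only gene called.

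The fitted late minus early difference was -0.11 ± 0.07 for Arrdc3, 0.17 ± 0.11 for Arrdc4, 0.02 ± 0.13 for Txnip, -0.02 ± 0.08 for Arrdc1 and 0.23 ± 0.21 for Arrdc2 (log2, SE, n = 6 pair means). Arrdc3 had pair means of 4154, 4758 and 4463 normalized counts in the early pairs 1, 4 and 5 and between 4099 and 4518 in the 3 late pairs, so the classes overlapped. For Arrdc4 the early pairs had 979, 950 and 931 and the late pairs 897, 1151 and 1127. Within library sets 1 and 2 the difference of Arrdc3 was -0.07 and -0.14, that of Arrdc4 0.24 and 0.10, that of Arrdc2 0.11 and 0.35, and that of Arrdc1 -0.06 and 0.03. In set 2 the early pair 4 was at passage 15 and the late pairs 6 and 7 at passage 16. Culture day and passage therefore cannot be told apart within set 2, and passage was not in the model.

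**Figure D4:**
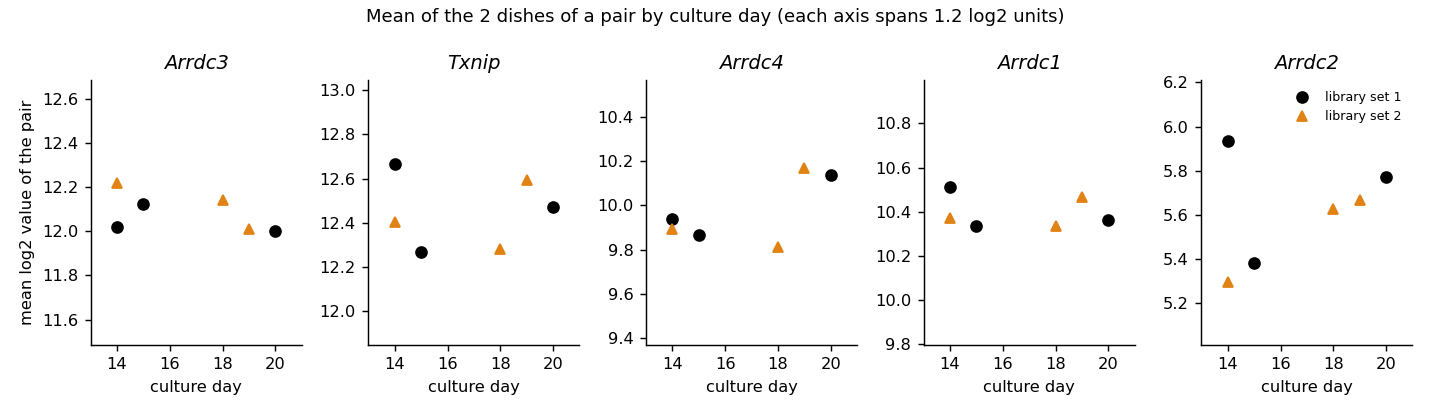
Mean log2 value of the 2 dishes of a pair (vertical axis, the same span for each gene) against culture day (horizontal axis) for library set 1 (black circles) and set 2 (orange triangles). Early and late pairs overlap for all 5 genes, and no gene passed the test for culture day (adjusted p of 0.837 or more).

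For library set 2 against set 1, which differ in passage as well (14, 14 and 15 in set 1, 15, 16 and 16 in set 2) so that set and passage can be told apart only in part, the members again did not pass (limma, adjusted p 0.578 to 0.978). The differences were 0.11 for Arrdc3, -0.08 for Arrdc4, -0.05 for Txnip, -0.01 for Arrdc1 and -0.24 for Arrdc2 on the log2 scale. In this comparison 0 of 13792 genes (0%) passed and 1501 (10.9%) had an unadjusted p under 0.05.

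The members differed in how far they varied between dishes of a group. Txnip had an SD of 0.21 on the log2 scale within groups, above that of 89% of the 500 genes nearest to it in level, whose median SD was 0.11. Arrdc4, with 0.19, was above 78.6% of its 500 neighbours, whose median was 0.13. Arrdc3 (0.11), Arrdc1 (0.10) and Arrdc2 (0.27) were below or near the middle of theirs, at 47.2%, 32.6% and 25.2%. For Txnip, Arrdc4 and Arrdc3 the SD in ablation dishes, 0.26, 0.25 and 0.13, was above that in control dishes, 0.14, 0.12 and 0.07, whereas for Arrdc1 (0.08 and 0.11) and Arrdc2 (0.25 and 0.29) it was below. These differences were not tested. Counting alone would give an SD of 0.02 for Txnip and 0.05 for Arrdc4.

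After the mean of each group had been subtracted, Txnip and Arrdc4 varied together, with Pearson's r of 0.68 and Spearman's rho of 0.75 over the 12 libraries. Without the ablation dishes of pairs 3 and 5, the 2 farthest from the median, r was 0.49. Their differences within pairs gave r = 0.79 over 6 pairs. Arrdc3 went the other way from Txnip (r = -0.58, rho = -0.57) and from Arrdc4 (r = -0.49, rho = -0.50). The strongest of the 10 relations was that of Arrdc2 and Arrdc3, with r = -0.83 and rho = -0.83, and -0.70 without the ablation dish of pair 4 and the control dish of pair 1. Their differences within pairs gave r = -0.84, which became 0.27 without pairs 1 and 4, so that this value rests on those pairs. Counting alone gives Arrdc2 an SD of 0.21 on the log2 scale, close to its SD of 0.27 within groups, which limits what its relation to Arrdc3 shows. Arrdc1 and Txnip gave r = 0.57 over the libraries, 0.24 without the 2 farthest dishes, 0.94 over the 6 pair means and -0.02 over the 6 differences within pairs. These values are descriptions without a test, since the points share libraries, size factors and, within a pair, the culture.

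**Figure D5:**
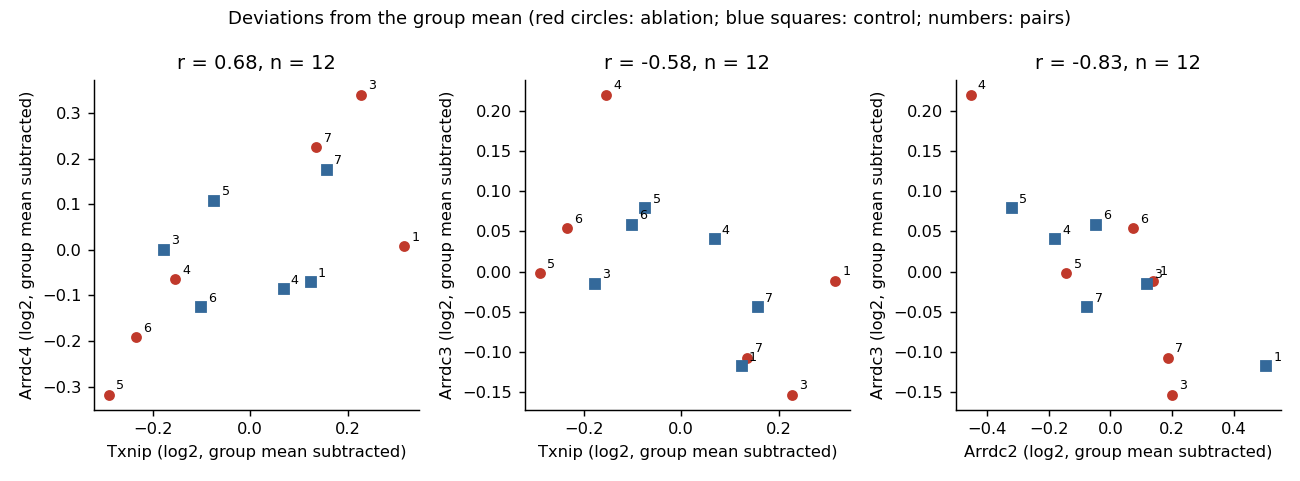
Deviation of each library from its group mean on the log2 scale for Arrdc4 against Txnip (left), Arrdc3 against Txnip (middle) and Arrdc3 against Arrdc2 (right). Red circles are ablation dishes, blue squares control dishes and the numbers name the pairs. The left cloud rises (r = 0.68), and the middle and right clouds fall (r = -0.58 and -0.83) over 12 libraries.

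The genes whose deviations were most like those of Arrdc3 over the 12 libraries were Mastl (r = 0.90), Gm35037 (0.87), Enkur (0.86), Blvrb (0.85) and Golga5 (0.85). Mastl encodes the Greatwall kinase of mitosis and Golga5 a golgin. Without subtraction of the group means the order was Enkur (0.92), Soat1 (0.89), Neurl3 (0.89), Cirbp (0.89) and Wdr5b (0.87). This second order contains the Arrdc3 difference between ablation and control by which the family was chosen, so it favours genes that also differ between the groups. Soat1 esterifies cholesterol and Cirbp is a cold-inducible RNA-binding protein. For Txnip the nearest genes were Parp16 (0.93), Baiap3 (0.89), Kcnk7 (0.89), Tex264 (0.87) and Rab30 (0.86). Arrdc4 held place 181 in the order of likeness to Txnip, and Arrdc2 held place 13777 of 13792 in that of Arrdc3. The named genes hold the top values of a search through all genes tested over only 12 libraries, and their r was not tested. Some lay low, at mean normalized counts in ablation and control of 17.1 and 9.44 (Gm35037), 38.9 and 28.5 (Enkur) and 27.0 and 26.1 (Baiap3).

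The genes around the family were followed in 8 lists drawn up from known roles with earlier results of these data in view, of which 67 of 77 listed genes were tested. In the limma model with the library set, 0 genes of the lists and 0 of all 13792 genes (0%) passed an adjusted p of 0.05, while 6 genes of the lists and 1083 of all genes (7.85%) had an unadjusted p under 0.05. With the pair in the limma model, 1 gene of the lists passed against 150 of all genes (1.09%), of which 93 were higher (0.674%) and 57 lower (0.413%) after ablation. Over the lists, 35 genes had a fitted difference above 0 and 32 below 0.

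Among the ubiquitin ligase partners, 3 of the 7 tested were above 0 and 4 below, with a median log2 difference of -0.03, and none passed. Nedd4, the founding ligase of the group, was lower in 6 of 6 pairs, and had 22156 ± 1809 against 24639 ± 1114 normalized counts (SD, n = 6) and limma adjusted p-values of 0.591 without and 0.0739 with the pair in the fit. Of all genes tested, 4.63% were lower in all 6 pairs. Nedd4 was by level the main ligase of the 4 named here, at 1857 normalized counts per kilobase, against 278 for Itch, 262 for Wwp1 and 207 for Wwp2. Itch, Wwp1 and Wwp2 had log2 differences of -0.03, -0.08 and 0.03.

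The membrane cargo of alpha-arrestins gave 3 genes above and 4 below 0 of 7 tested, and none passed. Itgb4, the integrin beta 4 gene, was lower in 6 of 6 pairs, at 18835 ± 2211 against 20345 ± 1328 (SD, n = 6). The same held for 4.63% of all genes tested. The limma adjusted p-values of Itgb4 were 0.739 without and 0.191 with the pair in the fit. Slc2a1, which encodes GLUT1, was at 3182 ± 316 and 3080 ± 180. In the ESCRT machinery, 4 of 12 genes were above and 8 below 0 and none passed. Tsg101, the partner of Arrdc1 in vesicle budding, had a log2 difference of -0.04.

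For the glucose-sensing factors and their targets, 4 of 5 tested genes were above and 1 below 0. Mlxip was at 1132 ± 149 and 1087 ± 70.1 and Mlx at 1211 ± 61.6 and 1180 ± 54.4 normalized counts (SD, n = 6). Klf10, a Krüppel-like factor that MondoA-type factors are known to induce, was higher in 6 of 6 pairs, as were 5.17% of all genes tested. It was at 2390 ± 315 against 2045 ± 215. Klf10 passed when the pair was in the limma fit (log2 difference 0.22, adjusted p = 0.0352) but not when only the library set was (0.619). In the thioredoxin system, 5 of 12 genes were above and 7 below 0 and none passed. Txn1 was at 10902 ± 1021 and 10517 ± 584 and Txnrd1 at 6142 ± 628 and 5549 ± 741.

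The FOXO factors and their targets gave 5 genes above and 6 below 0 of 11 tested, with a median log2 difference of -0.05 and no call. In the list of the glucocorticoid receptor and its targets, all 8 tested genes were above 0, with a median of 0.13 against -0.00 over all genes tested, and none passed in either model. Their log2 differences ran from 0.0003 for the receptor gene Nr3c1 to 0.27 for Dusp1. As the list was chosen with earlier results of these data known, its shared direction is a description and was not tested. Tsc22d3, a glucocorticoid-induced leucine zipper gene, was at 1177 ± 187 and 1073 ± 189 (SD, n = 6) and higher in 5 of 6 pairs. Of the other genes with an arrestin fold, 3 of 5 tested were above and 2 below 0, and none passed. Arrb1 and Arrb2, the beta-arrestins, were at 15.5 and 84.9 normalized counts per kilobase, below Arrdc3, Txnip, Arrdc1 and Arrdc4, and Arrdc5 was at 0 in all 12 libraries. No gene of any list passed for culture day.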

How the data were processed

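RNA of 12 dishes of mouse airway organoids (6 ablation, 6 control) had been sequenced as poly(A)-selected, stranded, paired-end libraries of 75 bases. The authors aligned the reads with the nf-core/rnaseq pipeline to GRCm38.p6 with GENCODE annotation and deposited normalized counts, a signal obtained by dividing reads by DESeq2 size factors. Their fold changes and p-values stand in the same table and were not used. Steps of the low values gave back whole reads in 9 libraries (tolerance 0.05), 23631212 to 29775699 per library. In the other 3 the steps were too close to 1 to be accepted. 0 columns belonged to other samples.

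Here, log2(normalized count + 1) of the 13792 genes that reached 10 in 6 or more libraries was fitted with limma 3.58.1 in R 4.3.3 (trended, robust eBayes, Benjamini-Hochberg over all genes tested), with condition and library set. Fold changes are on this scale, which slightly understates changes of low genes. Culture day and library set were fitted on the 6 pair means. An alternative had the pair as a block. The pairing comes from shared passage, culture day and date in the titles, and deviations of dishes with the same number correlated at r = 0.21 to 0.62 across genes. For pair 4 (0.21) a dish of another number correlated more closely (0.29). Other alternatives were a pseudocount of 5, no filter, quantile normalization, plain eBayes, edgeR 4.0.16 on the recovered reads, single library sets and leaving out pairs. The library set, paired and culture day models were tested on simulated counts that held no pair or culture effect. That test does not bear on the choice between the library set and paired models, and the other alternatives were not simulated. Coding identity was computed from nucleotides, and promoters came from RefSeq windows matched by symbol (5 of 5 members). For Arrdc3, which has 3 start-site windows, the most upstream was printed.

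The members and gene lists were chosen with earlier results of these data known. Text names the members, the markers, genes fixed per list with those that passed, and the 5 genes nearest to Arrdc3 or Txnip. Counting errors cover sampling of reads only.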

Additional observations from a re-analysis of the deposited data

Results flagged for a closer look

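Among the 10 groups formed by 5 genes and 2 conditions, 1 held a dish that stood apart from the others of its group by Dixon's criterion. This was Arrdc1 in the ablation dish of pair 1, with 1545 normalized counts, whereas the other 5 ablation dishes lay between 1332 and 1398. By chance about 1 in 20 groups would be marked in this way.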

How the results depend on the processing

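The ablation differences of the 5 members moved by less than 1 SD over pairs under all 105 alternatives computed, edgeR on the 9 libraries with recovered reads included (0.41 for Arrdc3 and -0.22 for Arrdc4). Many of these could not move a difference. The replicate block, no filter and plain eBayes leave the fitted difference as it was. The replicate block with 1 pair left out repeats the value without the block, so the count of alternatives is no measure of stability. The number of genes that passed for ablation was 0 in the model with the library set, 150 with the pair as replicate block and 3 without a filter on low values. With the replicate block and 1 pair left out, an alternative chosen after seeing the data, 176, 90, 8, 77, 106 and 140 genes passed without pairs 1, 3, 4, 5, 6 and 7, and with the replicate block and plain eBayes 0 passed. Of the list genes, Klf10 was the 1 gene called with the replicate block, and 1 was called when pair 6 or pair 7 was left out of that fit, 0 when another pair was. Of the other genes named in the report, Trp63, Soat1, Neurl3 and Cirbp passed with the pairing and not without it. For culture day, 1 gene passed in the model as reported, 12 without a filter, 0 with plain eBayes, in control dishes alone or in ablation dishes alone, 2 with the pair as a random effect, and 0 to 3 when 1 pair was left out. For the library set, 6 passed without a filter.

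Some small log2 differences changed sign. For ablation, Arrdc2 (-0.01) was 0.03 in library set 2, 0.0014 with edgeR, 0.07 without pair 1 and 0.05 without pair 4, and Txnip (-0.09) was 0.03 in library set 1. For culture day, Arrdc1 was 0.032 within library set 2 and ranged from -0.064 to 0.032 when 1 pair was left out, above 0 without pair 1, 3 or 6. Txnip was -0.12 in control dishes and ranged from -0.065 to 0.11, below 0 without pair 5 or 7. For library set, Arrdc1 was 0.015 in control dishes and ranged from -0.056 to 0.040, above 0 without pair 1, 4 or 6. Arrdc4 ranged from -0.15 to 0.0091, above 0 without pair 6, and Txnip was 0.12 in control dishes and ranged from -0.13 to 0.039, above 0 without pair 1 or 6. The cause was not tested. The other 68 alternatives for culture day and 57 for library set kept the direction, and those with a test kept their side of the threshold, while the values within a library set had no test. Depth limits Arrdc2 most, for which the counting SD of 0.21 is close to the spread between dishes of 0.27.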
